A study of Mus musculus with 8 samples.

Results

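Transcripts of 9 genes of the choroid plexus epithelium were followed in RNA from sorted mouse microglia: Ttr, Enpp2, Kl, Clic6, Folr1, Kcnj13, Sostdc1, Kcne2 and Aqp1. The genes are 9 of the 17261 in the count table. They were chosen on their levels in these same libraries, so those levels and the differences between groups are given as a description, with no test. Microglia are the resident macrophages of the brain. The cells had been sorted by FACS as CD45 intermediate and CD11b positive from brains of male wild-type C57BL/6 mice. Young mice were 10 weeks old and aged mice 18 months old, and at each age some had a stroke model that closes an artery branch over the cortex (dMCAO, distal occlusion of the middle cerebral artery) and others sham surgery. Brains were taken after 14 days. There are 2 libraries in each of the 4 groups: sham and dMCAO in young mice, and sham and dMCAO in aged mice. Nothing in the labels says that the 2 libraries of a group came from separate mice or how many mice went into each, so the spread between them may be technical.

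The choroid plexus is a folded epithelium in the brain ventricles that secretes cerebrospinal fluid. Its cells carry out ion and water transport with channels and pumps, take up folate and other nutrients from the blood, and make very large amounts of transthyretin, which carries thyroid hormone and retinol in the fluid. A stroma with vessels, fibroblasts and macrophages lies under the epithelium. Microglia are not known for making transthyretin. In bulk RNA, fewer choroid cells and less choroid RNA per cell cannot be told apart.

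Promoter sequences are shown because OTX2 is a homeodomain factor of this epithelium. RefSeq promoters on build GRCm38.p6 were given for 4 of the 9 genes, Kl, Kcnj13, Kcne2 and Aqp1, with 5 promoters in all. The word TAATCC, a core bound by OTX-type homeodomain proteins, was searched on both strands in the 250 bases before each start. It was in 0 of the 5 promoters and in 6.25% of the 32851 promoters of that length, so these letters are not in these windows, and nothing follows from that about the factor. The windows of Kl, Kcnj13 and Kcne2 are printed, with Aqp1 left out for its few counts, 5′ to 3′ on the strand of the gene. No letter is in capitals because no match was found. The Kl window is chr5:150952357-150952606 on the plus strand, the Kcnj13 window is chr1:87394730-87394979 on the minus strand, and the Kcne2 window, before the upstream of its 2 listed starts, is chr16:92292139-92292388 on the plus strand. Their GC content was 66.8%, 45.2% and 52.4%, beside a median of 52.4% over all promoters.
Kl: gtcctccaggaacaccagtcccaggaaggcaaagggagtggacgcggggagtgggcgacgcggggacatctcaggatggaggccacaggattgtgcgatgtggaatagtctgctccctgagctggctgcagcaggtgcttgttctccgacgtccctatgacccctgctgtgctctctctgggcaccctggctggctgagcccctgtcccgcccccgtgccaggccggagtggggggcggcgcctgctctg
Kcnj13: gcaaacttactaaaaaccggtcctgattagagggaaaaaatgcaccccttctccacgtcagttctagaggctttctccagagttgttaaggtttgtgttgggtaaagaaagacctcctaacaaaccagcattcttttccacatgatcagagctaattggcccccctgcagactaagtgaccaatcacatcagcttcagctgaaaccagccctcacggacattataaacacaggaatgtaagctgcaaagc
Kcne2: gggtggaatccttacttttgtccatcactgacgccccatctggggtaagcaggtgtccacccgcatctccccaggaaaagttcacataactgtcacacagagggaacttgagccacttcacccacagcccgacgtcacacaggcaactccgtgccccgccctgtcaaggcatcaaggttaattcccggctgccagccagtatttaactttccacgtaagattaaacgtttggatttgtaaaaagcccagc

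The libraries differed in ways that bear on every value below. Totals ran from 4181698 to 5767387 gene counts in 5 libraries, but were 1484870 in aged sham 1 and 747637 and 1297568 in aged dMCAO. These 3 shallow libraries also gave 12.7%, 13.4% and 34.3% of their counts to the ribosomal RNA gene Rn45s, against 3.44% to 8.60% in the others. Lars2 took 3.55% to 4.58% of their counts, against 0.311% to 0.897%. The 16 microglia markers, such as Cx3cr1 and Csf1r, were detected in each group and summed to 24363 to 31361 CPM (counts scaled to the library total after TMM scaling) in 7 libraries. In aged sham 2 they summed to 10281 CPM, with 4 monocyte markers at 816 CPM against 12.9 to 106 CPM in the others. Single microglia markers were less even than their sum. Cx3cr1 was at 13828 and 6374 CPM in aged dMCAO, against 2897 to 3708 CPM in the young libraries. Csf1r went the other way, at 1722 and 2308 CPM against 4514 to 5583 CPM. The parts of depth, ribosomal RNA and cell makeup in the results were not tested.

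The 2 deposited tables did not match in which replicate some of their columns hold. Over 9770 genes, the difference between the 2 aged dMCAO columns in the FPKM table ran against that in the count table (r = -0.90). The FPKM column named aged dMCAO 1 was most like the counts of aged dMCAO 2 (r = 0.86), and the column named aged dMCAO 2 most like the counts of aged dMCAO 1 (r = 0.89). For aged sham the names matched (r = 0.84). For young dMCAO the match was weaker (r = 0.39) and for young sham it was negative (r = -0.31). The FPKM column named young sham 2 was most like the counts of young sham 1 (r = 0.66). The column named young sham 1 had an r of 0.24 with the counts of that name and was most like those of young dMCAO 2, a library of another group, though weakly (r = 0.30). Which table names its columns rightly is not known. Values per library below therefore come from the count table, and FPKM are used by group. An exchange of columns within aged dMCAO leaves the mean of that group as it is, but for young sham no such exchange accounts for the mismatch, and FPKM means of young sham carry that doubt.

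Summed over the 9 genes, choroid plexus transcripts were lowest in young dMCAO and highest in aged dMCAO. The 9 genes together had 745 and 1948 counts in the young sham, 48 and 19 in the young dMCAO, 1257 and 2184 in the aged sham and 3780 and 3332 in the aged dMCAO libraries. Scaled to depth, the summed level was 118 and 386 CPM in the young sham, 10.5 and 3.54 in the young dMCAO, 900 and 372 in the aged sham and 5407 and 3645 in the aged dMCAO libraries. Both young dMCAO libraries lay below both young sham libraries and both aged dMCAO libraries above both aged sham libraries, while the young and aged sham libraries overlapped. Group means were 252 ± 190, 7.02 ± 4.93, 636 ± 373 and 4526 ± 1246 CPM in the same order (SD, n = 2 each). The order from low to high was young dMCAO, young sham, aged sham and aged dMCAO, with the 2 sham groups not apart beyond their spread.

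**Figure D1:**
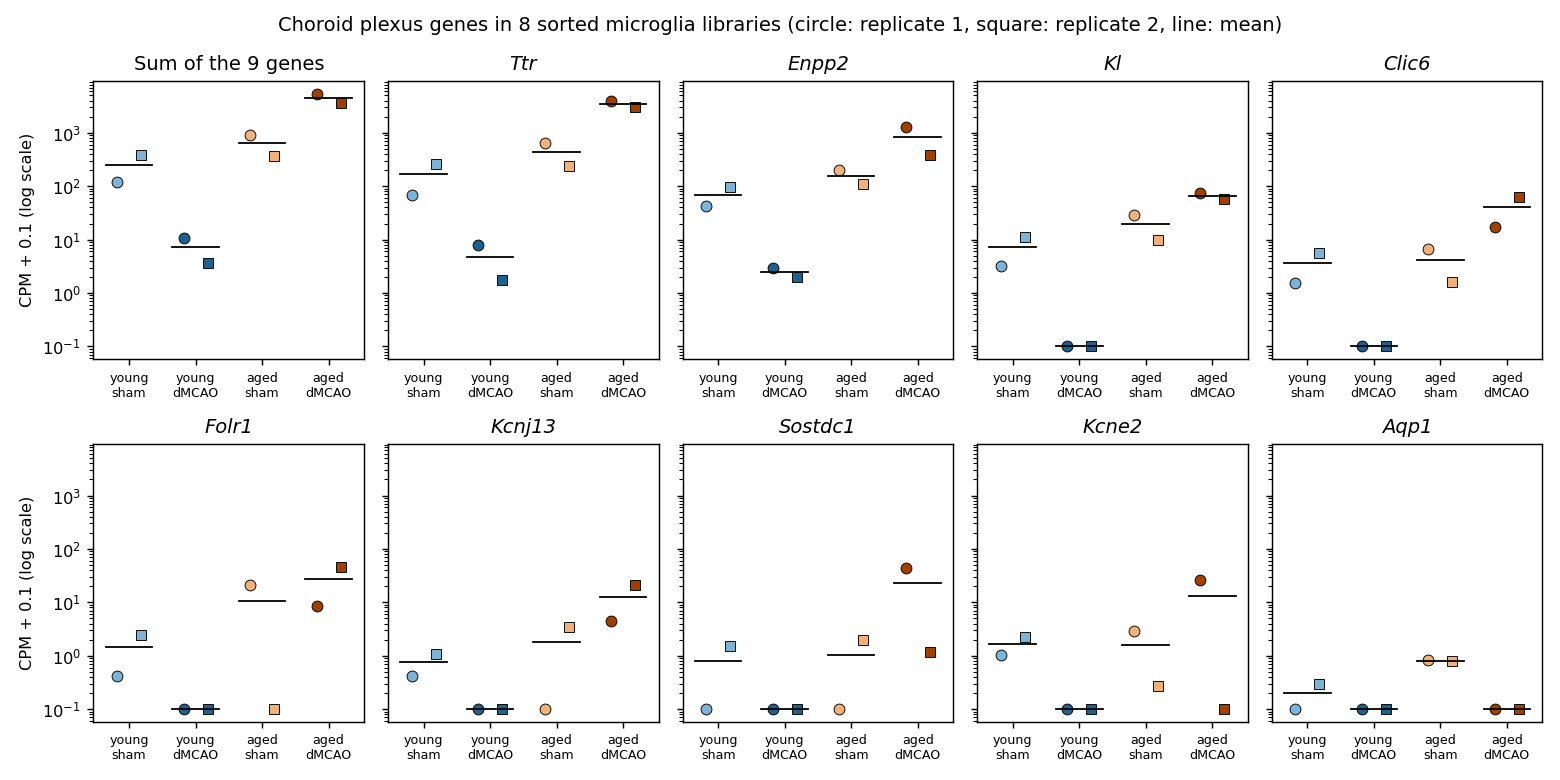
Level of each of the 9 choroid plexus genes and of their sum in every library, as CPM with 0.1 added, on a log axis; circles are replicate 1, squares replicate 2, and lines the mean of the 2. The summed level was 3.54 to 10.5 CPM in young dMCAO and 3645 to 5407 CPM in aged dMCAO, and 7 of the 9 genes had no count in young dMCAO.

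As a share of all gene counts, the 9 genes made up 0.00115% (95% Wilson interval 0.000866 to 0.00152) and 0.000376% (0.000240 to 0.000587) of the young dMCAO libraries. In aged dMCAO they made up 0.506% (0.490 to 0.522) and 0.257% (0.248 to 0.266). The young sham shares were 0.0129% and 0.0419%, and the aged sham shares 0.0847% and 0.0426%. These intervals, and the floors below, hold for counting error alone, as no molecular identifiers are named. In the sham groups and in aged dMCAO the 2 shares of a group differed by several times the width of the wider interval, and in young dMCAO by about the width of the interval of library 1.

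Set against the microglia of the same library, the order of the groups was the same. There were 4.02 and 12.3 counts of the 9 genes per 1000 counts of the 16 microglia markers in young sham, and 0.419 and 0.126 in young dMCAO. Aged sham had 29.6 and 36.2, and aged dMCAO 182 and 150. On this scale the 2 sham groups did not overlap, unlike in CPM, as aged sham 2 had the fewest microglia marker CPM.

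The ratio of the group means gave a summed level 35.9-fold lower in young dMCAO than in young sham (log2 ratio -5.16, with the combined SD of the log2 levels 1.64). In aged mice it was 7.12-fold higher after dMCAO than after sham (log2 ratio 2.83, combined SD 0.99). Aged sham was 2.52-fold above young sham (log2 ratio 1.34, combined SD 1.51), a difference smaller than the spread. Aged dMCAO was 644-fold above young dMCAO (log2 ratio 9.33, combined SD 1.18). Without young sham 2 the log2 ratio in young mice was -4.09, and without young dMCAO 1 it was -6.19. In aged mice it was 2.36 without aged sham 2 and 3.61 without aged sham 1. For age in sham it was 2.44 without young sham 2 and 0.54 without aged sham 1. For age after dMCAO it was 10.4 without young dMCAO 1 and 8.81 without young dMCAO 2. These comparisons share groups and are not independent. In the deposited FPKM, the summed level was 3.86 ± 2.44 in young dMCAO, 55.1 ± 22.0 in young sham, 185 ± 80.2 in aged sham and 824 ± 432 in aged dMCAO (SD, n = 2 each). The 2 sham groups overlapped in CPM but not in FPKM, where the columns were 39.6 and 70.7 for young sham and 128 and 241 for aged sham. The higher of the young sham values is from the column that matched its counts poorly.

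The secreted proteins carried nearly all of these counts. Ttr, transthyretin itself, lies at chromosome 18, 20665280 to 20674321 (plus strand, GRCm38). It had 442 and 1336 counts in the young sham, 35 and 9 in the young dMCAO, 898 and 1433 in the aged sham and 2771 and 2808 in the aged dMCAO libraries. Ranked by counts within a library, Ttr stood 13th and 18th of all genes in aged dMCAO, 162nd and 649th in aged sham, 2715th and 544th in young sham, and 8697th and 11168th in young dMCAO. Levels were 167 ± 138 CPM in young sham and 4.67 ± 4.23 CPM in young dMCAO, and 443 ± 282 CPM in aged sham and 3518 ± 631 CPM in aged dMCAO (SD, n = 2 each). The 2 aged dMCAO libraries were close to each other, while the 2 young sham libraries were far apart. The fitted log2 fold change of dMCAO against sham was -5.18 ± 0.90 (SE) in young and 2.99 ± 0.78 in aged mice. For aged against young it was 1.40 ± 0.74 in sham, where the libraries overlapped, and 9.57 ± 1.07 after dMCAO.

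Enpp2 encodes autotaxin, the secreted enzyme that makes lysophosphatidic acid, and is known from oligodendrocytes as well as choroid plexus. It lies at chromosome 15, 54838901 to 54952892 (minus strand), with the long non-coding RNA Gm26684 overlapping its start on the other strand. Its counts were 264 and 492 in the young sham, 13 and 10 in the young dMCAO, 275 and 650 in the aged sham and 888 and 353 in the aged dMCAO libraries. In CPM the 2 aged dMCAO libraries differed, at 1270 and 386, and both were above aged sham at 197 and 111. The fitted log2 fold change of dMCAO against sham was -4.88 ± 0.74 in young and 2.43 ± 0.62 in aged mice. For aged against young it was 1.14 ± 0.60 in sham and 8.45 ± 0.84 after dMCAO.

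Sostdc1, a secreted antagonist of BMP and Wnt signalling, was much scarcer. It had 0 and 7 counts in the young sham, none in the young dMCAO, 0 and 11 in the aged sham and 31 and 1 in the aged dMCAO libraries. The level in aged dMCAO thus rested on library 1, and the gene did not pass the filter on low counts.

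Among the membrane proteins, Kl encodes klotho, the co-receptor for the hormone FGF23. Its counts were 20 and 56 in the young sham, 0 and 0 in the young dMCAO, 41 and 56 in the aged sham and 51 and 52 in the aged dMCAO libraries. Its level was 73.0 and 56.9 CPM in aged dMCAO, above 29.4 and 9.53 CPM in aged sham and 3.16 and 11.1 CPM in young sham. With no count in young dMCAO set to a floor of 3 counts over the group, Kl was at least 22.5-fold lower there than in young sham and at least 155-fold lower than in aged dMCAO. Folr1, folate receptor alpha, which moves folate into the fluid, had 2 and 12 counts in the young sham, none in the young dMCAO, 29 and 0 in the aged sham and 6 and 41 in the aged dMCAO libraries. Its level differed between the 2 aged sham libraries (20.8 and 0 CPM) by more than the means of the 2 aged groups did (10.4 and 26.7 CPM). Folr1 overlaps Anapc15 on the other strand, and the sources used here do not say how strand was treated.

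The channel genes had few counts, at most 58 in a library. Clic6, of the chloride intracellular channel family, had 9 and 28 counts in the young sham, none in the young dMCAO, 9 and 9 in the aged sham and 12 and 58 in the aged dMCAO libraries. It was at least 10.9-fold lower in young dMCAO than in young sham, and its log2 fold change of dMCAO against sham in aged mice was 3.42 ± 1.36. Clic6 overlaps 2410124H12Rik on the same strand. Kcne2, a potassium channel subunit that pairs with KCNQ1, had 6 and 11 counts in the young sham, none in the young dMCAO, 4 and 1 in the aged sham and 18 and 0 in the aged dMCAO libraries. It was present in the shallowest library and not in the other library of the same group. Aqp1, the apical water channel, had few counts in every library: 0 and 1 counts in young sham, 1 and 4 in aged sham, and none in either dMCAO group. A count of 0 allowed up to 4.29 CPM in aged dMCAO 1 and 3.28 CPM in aged dMCAO 2, above the 0.72 and 0.68 CPM measured in aged sham, so a difference was not detectable at this depth.

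Kcnj13 encodes Kir7.1, a potassium channel of the epithelium's apical membrane. It had 2 and 5 counts in the young sham, none in the young dMCAO, 0 and 20 in the aged sham and 3 and 19 in the aged dMCAO libraries. The gene (chromosome 1, 87386363 to 87394729, minus strand) lies wholly inside Gigyf2 (87326998 to 87450796, plus strand), which was at 114 to 162 CPM in every library. In the deposited FPKM, Kcnj13 was not at 0 in young dMCAO: it was 0.72 ± 0.37 in the young sham, 1.58 ± 0.74 in the young dMCAO, 1.16 ± 1.64 in the aged sham and 1.88 ± 1.34 in the aged dMCAO libraries (SD, n = 2 each). The direction in young mice therefore differed between the 2 tables for Kcnj13, and whether the counting separated the 2 strands is not stated.

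Per kilobase of annotated exon, which allows genes to be compared, Ttr was at 2966 CPM per kb in aged dMCAO and Enpp2 at 143. The next 6 genes lay between 6.96 (Kl) and 12.8 (Sostdc1) CPM per kb, and Aqp1 was at 0. In young sham the same scale gave 141 for Ttr, 12.04 for Enpp2 and 0.038 to 0.89 for the other 7.

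Counted over the 9 genes, both young dMCAO libraries were below both young sham libraries for 7, beside 20.4% of all 11955 tested genes. Sostdc1 and Aqp1 were the exceptions. In aged mice 5 genes (Ttr, Enpp2, Kl, Clic6 and Kcnj13) were above sham in both dMCAO libraries, beside 11.6% of tested genes, and Aqp1 was below. Aged sham was above young sham in both libraries for 2 genes, Enpp2 and Aqp1, beside 18.3%. Aged dMCAO was above young dMCAO for 7 genes, beside 15.5%. The genes were chosen on these contrasts, so nothing is read from these counts.

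The mixture of the 9 genes was not constant from library to library. Ttr and Enpp2 together made up 93.3% to 100% of the counts, and the 7 others 0% to 6.68%. Ttr per Enpp2 count was 1.67 and 2.72 in the young sham, 2.69 and 0.90 in the young dMCAO, 3.27 and 2.205 in the aged sham and 3.12 and 7.95 in the aged dMCAO libraries. In aged dMCAO, Enpp2 made up 23.5% (95% Wilson interval 22.2 to 24.9) of the 3780 counts of library 1 and 10.6% (9.59 to 11.7) of the 3332 counts of library 2. The rarer genes differed between the same 2 libraries: Folr1 at 0.159% and 1.23%, Clic6 at 0.317% and 1.74%, Sostdc1 at 0.820% and 0.030%, and Kcne2 at 0.476% and 0%. Their intervals did not overlap. These intervals, like those of the shares above, hold for counting error alone and take reads as independent molecules, and the 2 libraries are shallow, so whether the proportions differ beyond library preparation was not tested. In young dMCAO the 48 and 19 counts allowed the 7 rarer genes a share of up to 7.41% and 16.8% by the same intervals, above the share they had elsewhere, so their loss from the mixture was not detectable at this depth.

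**Figure D2:**
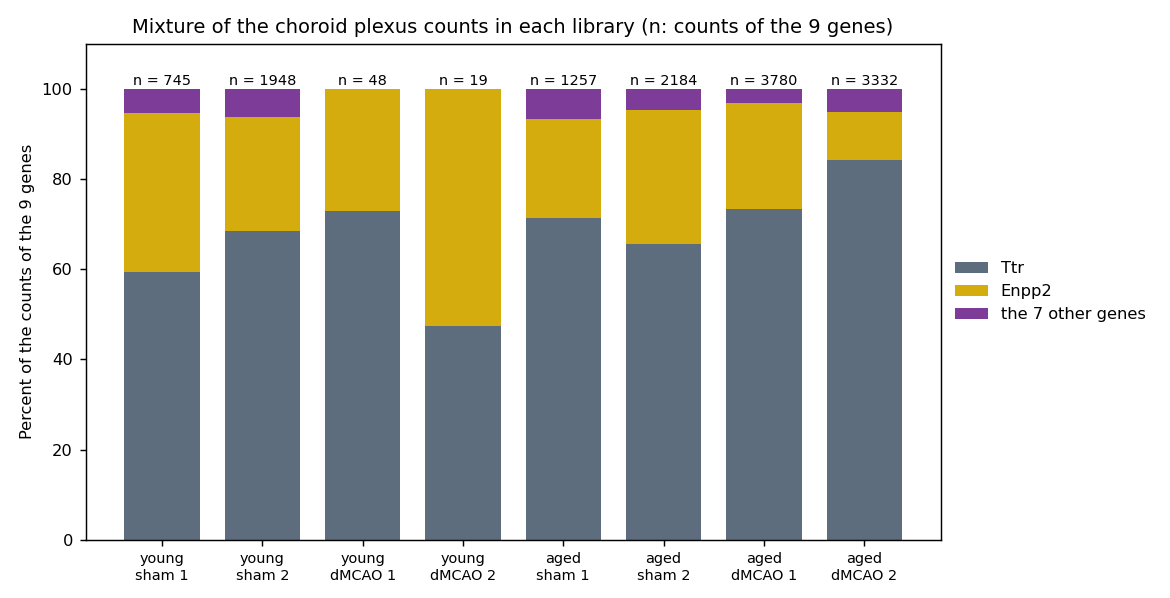
Share of the counts of the 9 genes taken by Ttr, Enpp2 and the 7 others in each library, in percent, with the number of counts above each bar. Enpp2 is at 23.5% in aged dMCAO 1 and 10.6% in aged dMCAO 2, and the 7 others reach at most 6.68%.

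Over the 8 libraries, the genes differed in how closely they followed the rest. The Pearson correlation of log2(CPM + 1) of a gene with the sum of the other 8 was 0.99 for Ttr, 0.99 for Enpp2, 0.99 for Kl and 0.90 for Clic6. It was 0.79 for Folr1, 0.72 for Kcnj13, 0.63 for Sostdc1, 0.59 for Kcne2 and 0.23 for Aqp1, so the genes with the most counts followed the sum best. These are descriptions over 8 libraries that share groups and depth, and 4 groups of 2 libraries are not 8 independent points.

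Genes outside the 9 that mark the same epithelium were read from a list of 46, of which 43 were in the count table (not Cldn3, Slco1a5 and Mfrp) and 29 passed the filter. The filter keeps a gene above a cutoff in at least 2 libraries, whatever their group, so these 29 do not stand for the whole list. Its cutoff is scaled to depth, so few counts are enough in the shallow aged dMCAO libraries. Msx1 and Calml4, for example, were at most 1.43 and 1.98 CPM outside aged dMCAO, against 14.3 to 21.5 CPM within it. Such genes passed through the group where they were high. Several genes that define the epithelium, such as the homeodomain factors Otx2 and Lmx1a and the claudin Cldn2, were nearly absent: Otx2, Cldn2 and Steap1 had 1 count each over the 8 libraries, Lmx1a 2 and Krt8 3, all in young sham, and Wdr86 had 6, all in aged sham 2. In aged dMCAO, where Ttr was highest, these 6 genes had no count, and the depth there allowed each up to 4.29 and 3.28 CPM. The homeodomain gene Msx1 differed from them. It had 7 and 2 counts in the young sham, none in the young dMCAO, 2 and 6 in the aged sham and 15 and 17 in the aged dMCAO libraries. By counts, the name choroid plexus thus rests here mainly on the secreted genes Ttr and Enpp2. Far fewer counts came from the membrane genes, some of which were nearly absent, and it does not rest on Otx2 or Lmx1a.

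After dMCAO in young mice, 7 of the 29 genes had a log2 fold change above 0 and the median was -1.35 (-1.28 over the 28 genes with a value once those at 0 counts are put at their bounds), against -0.00 over all tested genes. In aged mice 22 of 29 were above 0 with a median of 2.75, against -0.29 over all genes. For age in sham 19 were above 0 with a median of 0.43, against -0.02. For age after dMCAO 27 were above 0 with a median of 4.31 (4.62 over 27 genes with bounds), against -0.32. Of all tested genes, 49.6%, 40.0%, 48.7% and 39.8% were above 0 in these comparisons. Tallies and medians that involve aged dMCAO, here and in the tests below, are in part set by the filter. Nothing is read from them.

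In the model of group means alone, edgeR's quasi-likelihood test at an adjusted p under 0.05 called 0 of the 29 for dMCAO in young mice (0.00836% of the tested genes were called), for dMCAO in aged mice (0.0335%), for age in sham (0%), for age after dMCAO (0.0753%) and for the interaction of age and surgery (0%). At an unadjusted p under 0.05, 4 were lower after dMCAO in young mice (1.24% of tested genes passed), 9 were higher after dMCAO in aged mice (18.3%), 4 were higher and 1 lower with age in sham (9.44%), 16 were higher with age after dMCAO (19.6%) and 11 were higher in the interaction (10.4%). The shares in brackets count both directions. Of all 11955 tested genes, 126 were higher and 22 lower at that threshold after dMCAO in young mice. In aged mice 594 were higher and 1593 lower after dMCAO. With age, 667 were higher and 462 lower in sham, and 684 higher and 1659 lower after dMCAO. In the interaction 255 were higher and 987 lower. DESeq2 called 1, 5, 3, 14 and 6 of the 29 in the same order, beside 0.276%, 8.78%, 3.26%, 10.3% and 2.51% of tested genes. Limma-voom called 0, 0, 0, 4 and 0, beside 0%, 0.00836%, 0.0251%, 0.569% and 0%. The count of calls thus depended on the tool, and it rose from 0 under other settings of edgeR as well.

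The cation channel gene Trpm3 had the lowest adjusted p of the 29. It was at 6.48 and 12.1 CPM in the young sham, 0.88 and 2.61 in the young dMCAO, 7.87 and 16.9 in the aged sham and 212 and 90.8 in the aged dMCAO libraries. Its log2 fold change for age after dMCAO was 6.39 ± 0.88 (SE), with an adjusted p of 0.0533 in edgeR's quasi-likelihood test. For dMCAO in aged mice it was 3.57 ± 0.76 (adjusted p 0.126) and in young mice -2.37 ± 0.77 (adjusted p 1). The interaction was 5.94 ± 1.08 (adjusted p 0.342). Trpm3 was called higher with age after dMCAO by DESeq2, by limma-voom, and from FPKM with a pseudocount of 0.1. It was also called by edgeR with no filter on low counts or with a block by the N code of the titles. The main edgeR fit did not call it. Nor did edgeR with RLE or upper-quartile factors, a filter at a mean of 5 CPM, or totals without Rn45s. It was also not called with a block by replicate number, with only the groups compared, or from FPKM with a pseudocount of 1. The 2 dMCAO groups lay on opposite sides of their sham groups without overlap.

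Vat1l and Igfbp2, an insulin-like growth factor binding protein, had the same order of dMCAO against sham at each age. Vat1l had 16 and 29 counts in the young sham, none in the young dMCAO, 11 and 21 in the aged sham and 40 and 17 in the aged dMCAO libraries, so it was at least 13.3-fold lower in young dMCAO than in young sham and at least 85.8-fold lower than in aged dMCAO (edgeR adjusted p 0.0818 for age after dMCAO). Igfbp2 had 3 and 17, 0 and 1, 4 and 10, and 32 and 17 counts in the same order. Its ratio of aged to young dMCAO, 221 on 49 counts against 1, had an exact interval of 37.9 to 8921 (edgeR adjusted p 0.0971). That interval pools the 2 libraries of each group and holds for counting error alone, not for the spread between libraries. Sulf1, a heparan sulfate endosulfatase, was at 71.5 and 8.75 CPM in aged dMCAO and at most 4.30 CPM elsewhere. Col9a3, a collagen IX chain, was at 52.9 and 44.8 CPM there and at most 5.55 CPM elsewhere. Cgnl1, a junction protein, was at 32.9 and 50.3 CPM there and at most 8.52 CPM elsewhere.

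Other abundant genes of the list had other patterns. The anion exchanger gene Slc4a2 was at 45.8 to 69.2 CPM in 7 libraries and 119 CPM in aged dMCAO 1. Trpv4, a cation channel gene, was at 44.4 CPM in aged sham 1 and 7.15 to 19.7 CPM elsewhere. The zinc importer gene Slc39a4 had 55.8 CPM in aged dMCAO 2 and no count in aged dMCAO 1. Ace (angiotensin-converting enzyme), F5 (coagulation factor V) and Ezr (ezrin) were at 530, 391 and 275 CPM in aged sham 2, against 9.31, 16.5 and 97.4 CPM in aged sham 1. Aged sham 2 is the library with high monocyte markers, and B-cell markers were also high there, at 76.3 CPM against at most 18.6 CPM elsewhere. Ezr was not particular to that library. It was at 126 and 275 CPM in aged dMCAO, against 10.6 to 31.7 CPM in the young libraries. The sum of the whole list was 134 and 212 CPM in the young sham and 179.5 and 157 in the young dMCAO libraries. It was 324 and 1360 CPM in the aged sham and 1069 and 1074 in the aged dMCAO libraries, so aged sham 2 was highest. Ezr, Ace and F5 were then left out, after their values were seen. Without them the sum was 112 and 169 CPM in the young sham and 108 and 115 in the young dMCAO libraries. It was 200 and 164 CPM in the aged sham and 824 and 576 in the aged dMCAO libraries. The young groups overlapped in both sums. The part of other immune cells in the level of these 3 genes was not tested.

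**Figure D3:**
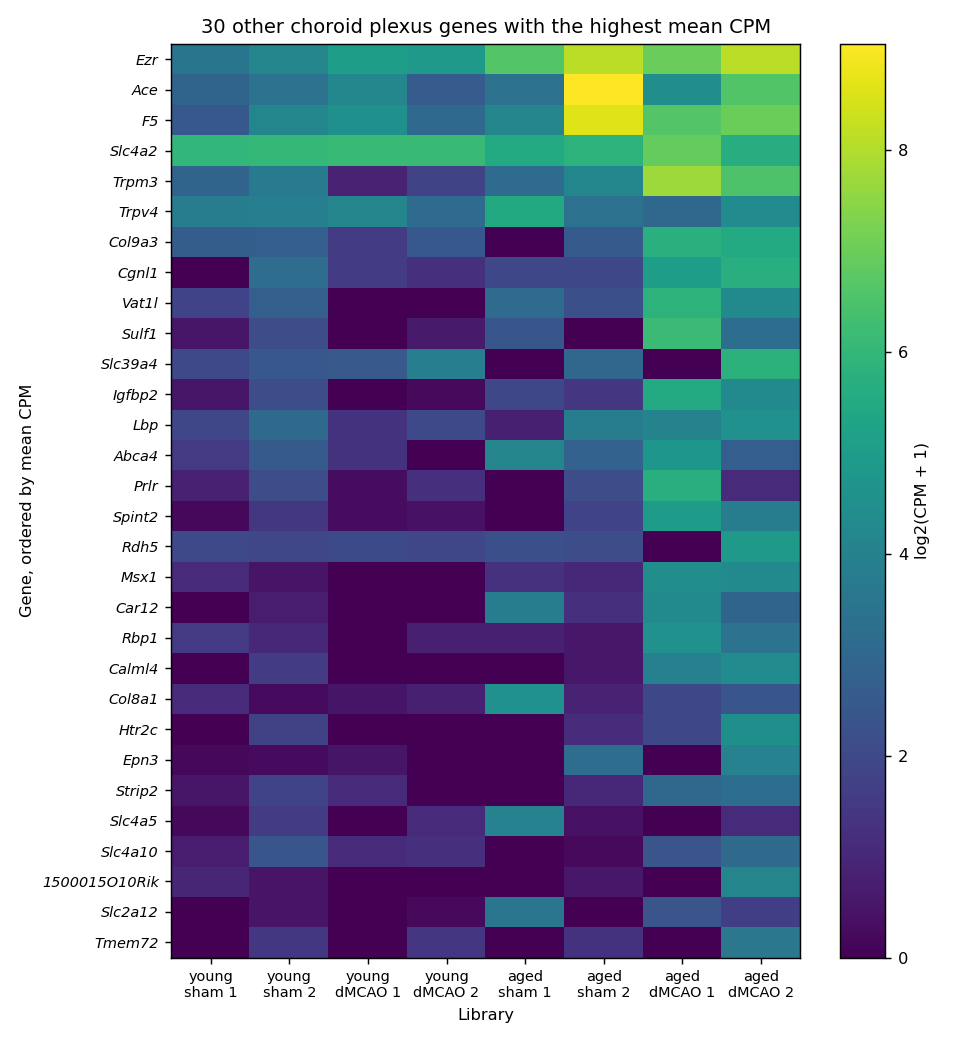
Heat map of log2(CPM + 1) of the 30 genes with the highest mean CPM among the 43 other choroid plexus genes, one row per gene and one column per library. Trpm3, Vat1l, Igfbp2 and Col9a3 are brightest in the 2 aged dMCAO columns, while Ace and F5 peak in aged sham 2 at 530 and 391 CPM.

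Markers of other cells moved along with the choroid genes in part. Of 9 oligodendrocyte markers, all in the table, the sum was 84.8 to 128 CPM in the 4 young libraries, 401 and 162 CPM in aged sham, and 983 and 638 CPM in aged dMCAO. The sums did not rest on all 9: 4 had no count in either aged sham library and 3 had none in either aged dMCAO library. Mbp, a myelin protein gene, was at 26.8 to 34.6 CPM in the young libraries, 140 and 128 CPM in aged sham, and 243 and 163 CPM in aged dMCAO. In young mice the oligodendrocyte sum was 102 and 104 CPM after dMCAO, beside 84.8 and 128 CPM in sham, while Enpp2 was at 1.86 and 2.85 CPM. Enpp2 is also an oligodendrocyte gene, and the part of these cells in its aged level was not tested.

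Stromal and meningeal markers, 11 of 12 in the table, summed to 8.37 to 30.2 CPM in 6 libraries, 146 CPM in aged dMCAO 1 and 1445 CPM in aged dMCAO 2. Col1a1 and Col1a2 were at 520 and 383 CPM in the last library and at 34.3 and 5.72 CPM in the other of the same group. The library with the larger stromal sum had the smaller choroid sum. Mural markers were at 0 in aged dMCAO 1 and 125 CPM in aged dMCAO 2, where Cspg4 was at 63.4 CPM and Pdgfrb at 35.0 CPM, and 3 of the 7 had no count in either. Endothelial markers, led by Pecam1 and Flt1, were at 64.4 and 218 CPM in aged dMCAO and 32.4 to 109 CPM elsewhere.

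Ependymal cells line the ventricles next to the choroid plexus, and their 15 markers in the table summed to at most 43.4 CPM in a library. They summed to 10.7 and 13.9 CPM in the young sham, 10.3 and 6.52 in the young dMCAO, 12.2 and 43.4 in the aged sham and 2.86 and 10.9 in the aged dMCAO libraries. In aged dMCAO 12 of the 15 had no count in either library. The highest value, in aged sham 2, came mostly from Tppp3 at 36.3 CPM, and Ccdc67 was at 1.02 to 6.79 CPM over the libraries.

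Astrocyte markers, led by Slc1a3 and Slc1a2, were at 118 to 144 CPM in young libraries, 189 and 47.5 CPM in aged sham, and 164 and 197 CPM in aged dMCAO. Neuron markers were at 0.632 to 7.16 CPM in 7 libraries and 100 CPM in aged dMCAO 1, nearly all of it Snap25 at 94.4 CPM, and Nefl was at 5.72 CPM there. Border macrophages, which live in the choroid stroma and meninges, had markers at 1374 and 1399 CPM in the young sham, 981 and 792 in the young dMCAO, 1676 and 1045 in the aged sham and 276 and 366 in the aged dMCAO libraries. Stab1 and F13a1 were the most abundant of them. The macrophage sum was thus lowest where the epithelial genes were highest, as was Stab1, at 149 and 255 CPM. F13a1 was not, at 60.1 and 63.4 CPM there against 38.9 CPM in young sham 1 and 34.5 CPM in young dMCAO 2. The sum of neutrophil markers, led by Ngp and S100a9, was lowest there as well, at 93.0 and 313 CPM. It was 315 to 1361 CPM in the other libraries. Ngp in aged dMCAO 2 (139 CPM) was above Ngp in young sham 1 (118 CPM). Among monocyte markers, Ccr2 and Chil3 were at 332 and 186 CPM in aged sham 2. Cd79a and Cd79b of B cells were at 30.5 and 22.5 CPM in that library, the T-cell gene Cd3g was at 10.0 CPM there with Nkg7 at 2.38 CPM, and the erythroid gene Alas2 reached 11.5 CPM in aged sham 1. The parts of these cells in the level of the 9 genes were not tested.

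**Figure D4:**
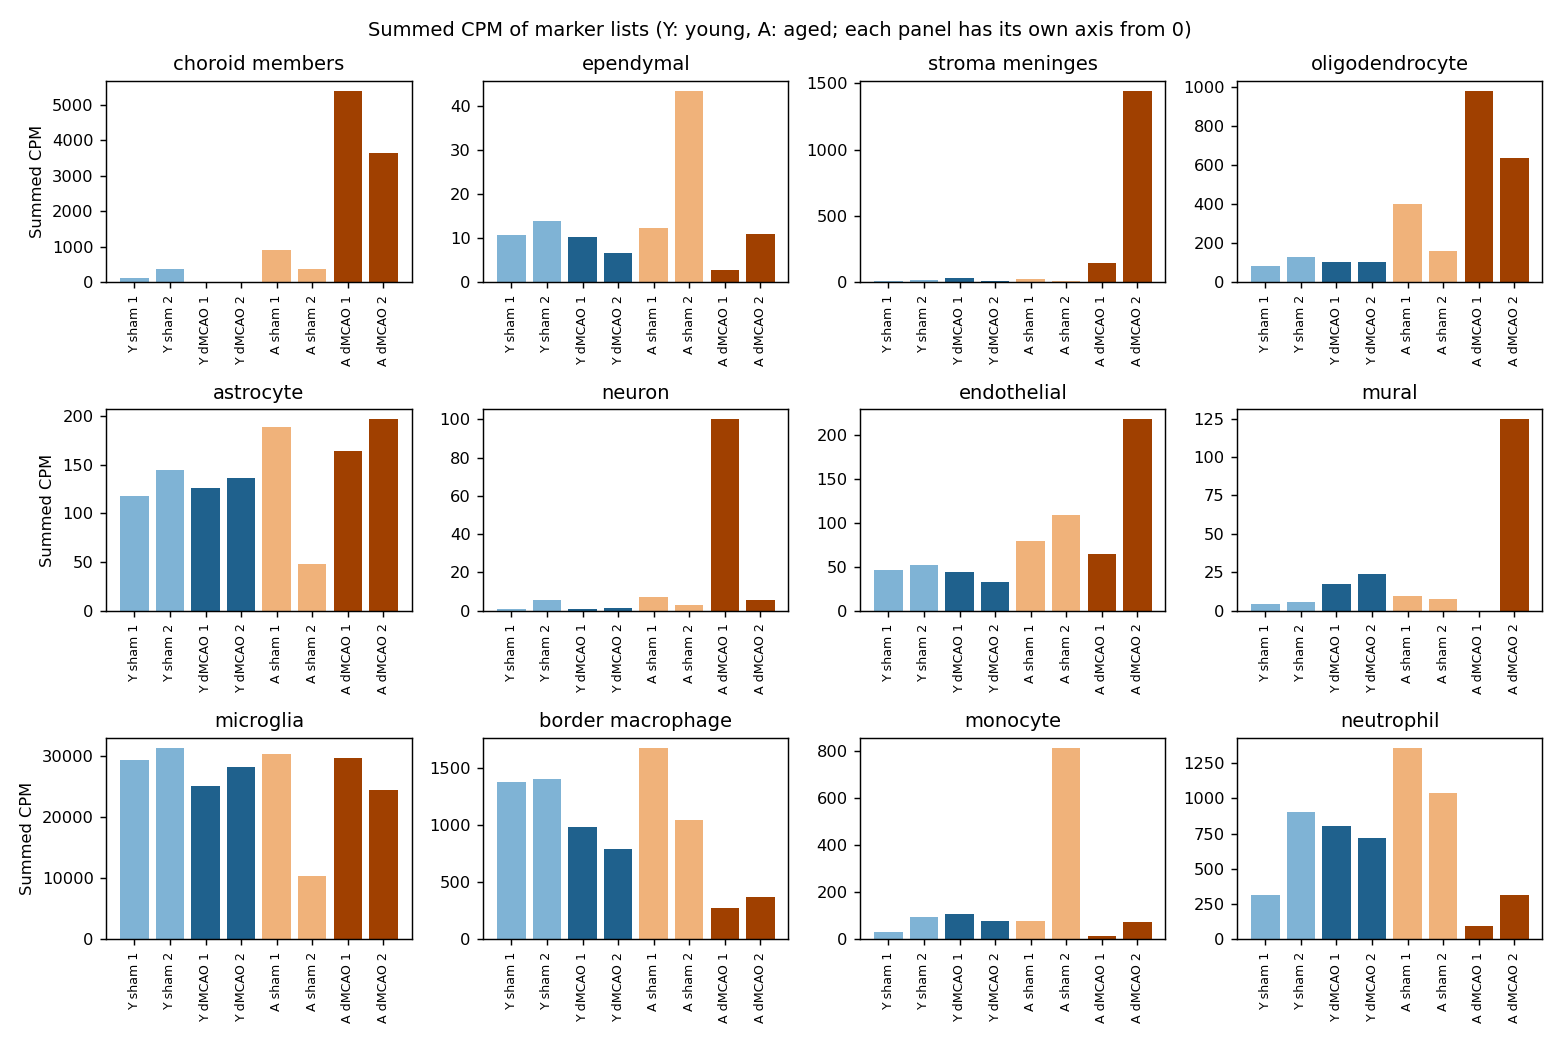
Summed CPM of the 9 choroid plexus genes and of 11 marker lists in each library; bars are coloured by group and each panel has its own axis from 0. The oligodendrocyte sum is highest in aged dMCAO at 983 and 638 CPM, the stromal sum is high in 1 library of that group at 1445 CPM, and the ependymal sum is at most 43.4 CPM.

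Genes with the pattern most like the 9 were ranked over the 8 libraries by the Pearson correlation of log2(CPM + 1) with the summed level, among 9864 genes with a mean of at least 5 CPM. The top 50 held 4 of the 5 choroid genes compared (Ttr, Enpp2, Kl and Clic6, which are part of the sum) and 4 of the 19 other choroid genes compared: Vat1l (r = 0.96, 5th), Trpm3 (0.89, 22nd), Igfbp2 (0.89, 26th) and Abca4 (0.89, 29th). Outside all lists the 10 nearest genes were Wibg (r = 0.97), Stk16 (0.93), Ap2s1 (0.93), Clu (0.93), Hmgb1 (0.93), Cdc37 (0.92), Ube2w (0.92), Ddx46 (0.92), Txn2 (0.92) and Svip (0.91). Stk16 ran from 21.8 to 31.7 CPM, a ratio of 1.46 between its highest and lowest library. The ratio was 2.23 to 3.09 for Wibg, Ap2s1, Hmgb1, Cdc37, Ube2w, Ddx46 and Txn2. Clu, clusterin, ran from 0 and 0.75 CPM in young dMCAO to 116 and 44.8 CPM in aged dMCAO, and Svip from 1.31 and 1.12 to 20.03 and 52.5 CPM. A correlation over 8 libraries that share groups and depth is a description.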

How the data were processed

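RNA from sorted microglia was sequenced in 8 libraries, 2 in each of 4 groups, from SMARTer Stranded Total RNA-Seq (Pico) libraries per the labels. TopHat, TopHat2, Cufflinks 2.2.1 and HTSeq 0.11.2 with build mm10 are named in the submitters' processing notes. The sources used here give neither their order, nor how strand was treated, nor the annotation. The authors deposited a table of raw counts for 17261 genes and a table of FPKM (values scaled by gene length and sequencing depth) for 23827 genes. Spaces were taken off 24 symbols.

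Counts were fitted with edgeR 4.0.16 in R 4.3.3: filterByExpr by group (minimum count 10, minimum total 15; 11955 genes tested), TMM factors, and 1 quasi-likelihood fit of group means over all 8 libraries (4 residual degrees of freedom). Tests were two-sided with Benjamini-Hochberg adjustment over all tested genes. Alternatives used DESeq2 1.42.0, limma 3.58.1 (voom, and limma-trend on log2 FPKM), other factors and filters, blocks, libraries left out and totals without Rn45s in the fit, the last added after the data were seen. The fitting code was tested on simulated data. Floors are 3 counts, and share intervals 95% Wilson. Depth ran from 747637 to 5767387 counts.

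The 9 genes and all lists were chosen with earlier results of these data known. Named are the 9 genes; of the other choroid genes the 12 with the highest mean CPM and any called; of each other marker list the 2 highest (1 is not reported here); and the 10 unlisted, not predicted genes nearest in pattern with a mean of at least 5 CPM. Abca4, Msx1, Calml4, Steap1, Otx2, Cldn2, Lmx1a, Krt8 and Wdr86 were named after their values were seen. Positions and exon lengths are from GENCODE M21.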

Additional observations from a re-analysis of the deposited data

Results flagged for a closer look

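The summed level of the 9 choroid plexus genes moved in opposite directions after dMCAO at the 2 ages. In young mice the log2 ratio of dMCAO to sham was -5.16, with both dMCAO libraries (10.5 and 3.54 CPM) below both sham libraries (118 and 386 CPM). In aged mice the log2 ratio was 2.83, with both dMCAO libraries (5407 and 3645 CPM) above both sham libraries (900 and 372 CPM). The difference between the ages was not tested, because the genes were chosen on these values.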

How the results depend on the processing

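The log2 ratios of the summed level kept their direction under each of the alternatives run, and 73 of 75 values moved by less than the spread between replicates. The other 2 came from the deposited FPKM, with 7.74 for age after dMCAO and 5.99 for the interaction, against 9.33 and 7.996. Some of the 75 leave out a library of neither group compared and could move only through the filter and the scaling factors. The tally therefore overstates how far the ratios were put to a test. Leaving out 1 library gave -6.19 to -4.09 for dMCAO in young mice, 2.36 to 3.61 in aged mice, 0.54 to 2.44 for age in sham, 8.81 to 10.4 for age after dMCAO and 6.96 to 9.06 for the interaction. The sum without Ttr was 192 CPM in aged sham and 1008 CPM in aged dMCAO, against 636 and 4526 CPM with it. With FPKM, at a pseudocount of 1 or of 0.1, 1 gene, not 0, was above 0 for dMCAO in young mice. That fit kept only genes with a mean of at least 1 FPKM. It held fewer of the 9 genes than the 7 tested in the main edgeR fit. FPKM as a level was not run as an alternative to CPM, since the unit differs. By likeness to Enpp2 alone, 6 of the 10 named genes were kept.

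Counts of all genes called are given in the order dMCAO in young mice, dMCAO in aged mice, age in sham, age after dMCAO and interaction, where edgeR gave 1, 4, 0, 9 and 0. DESeq2 called 33, 1050, 390, 1233 and 300, and edgeR with no filter 32, 672, 322, 735 and 210. Limma-voom called 0, 1, 3, 68 and 0. FPKM gave 7, 116, 26, 1689 and 5 with a pseudocount of 0.1, and 16, 0, 27, 1044 and 9 with a pseudocount of 1. Fits of only the groups compared called 173, 0, 0 and 0, with no such fit for the interaction. RLE factors called 4 for age after dMCAO. Without 1 library the counts were 0 to 1, 0 to 422, 0 to 4, 0 to 692 and 0 to 2; without aged dMCAO 1 or aged dMCAO 2, 402 and 422 genes were called for dMCAO in aged mice, the lone library being assumed to vary like the other groups.

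Of the 29 other choroid genes, where edgeR called 0 throughout, DESeq2 called 1, 5, 3, 14 and 6, and edgeR with no filter 0, 3, 3, 13 and 3. For age after dMCAO limma-voom called 4 and FPKM with a pseudocount of 0.1 called 2. Without 1 library, 0 to 1 were called for dMCAO in aged mice (Trpm3, without aged dMCAO 2) and 0 to 3 for age after dMCAO (Trpm3 and Vat1l, with Ezr or Igfbp2).

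The labels do not say that a replicate number marks a shared mouse or day, and deviations of same-numbered libraries correlated at -0.083 to 0.087. With a replicate block by number, 0 genes were called for dMCAO in aged mice and 3 for age after dMCAO. With a replicate block by the N code of the titles, 15, 168, 116, 192 and 25 genes were called, and 0, 1, 3, 5 and 1 of the other choroid genes: Trpm3 for dMCAO in aged mice and for the interaction, Ace, Ezr and F5 for age in sham, and these 4 with Vat1l for age after dMCAO. Deviations of libraries that share an N code correlated at -0.069 to 0.087, so neither code was shown to pair the libraries.

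The shallow depth of aged sham 1 and both aged dMCAO libraries limits the rarer genes: 0 counts there allow 2.15, 4.29 and 3.28 CPM, against 0.474 to 0.657 CPM in the other libraries. Folr1, Kcnj13, Sostdc1 and Kcne2 each had a group with counts in 1 of its 2 libraries.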
